A study of Mus musculus with 60 samples.

Results

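Voluntary wheel running was followed in the subcutaneous white adipose tissue (scWAT) of mice kept on chow. The comparison took the 5 scWAT libraries of chow trained mice against the 5 of chow sedentary mice, chosen by the animal codes in the sample titles (TC for trained, SC for sedentary); these are 10 of the 20 scWAT libraries and of the 60 libraries in the series. All mice were C57BL/6JN, aged 12 weeks per the labels, and each library came from a different mouse. Chow with 10% of energy from fat was given for 6 weeks; over the last 3 of these weeks trained mice could run at will on a wheel and sedentary mice could not. All tissue was collected after a 6-hour fast and 24 hours with the wheels locked, so the values describe rested, fasted mice and not fat taken during a run. For comparison, the same fit held 5 sedentary and 5 trained scWAT libraries of mice on a high-fat diet (HFD, 60% of energy from fat), with the same weeks of running. The visceral fat (vWAT) of the same 10 chow mice was set beside it, and triceps muscle of the same 20 mice served as a reference for muscle transcripts.

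White fat stores triglyceride in large adipocytes held in a collagen-rich matrix, and it secretes hormones such as leptin that report on the fat store. In subcutaneous depots the pad lies next to skin and body wall muscle and encloses lymph nodes, so a dissected pad can carry transcripts of these tissues. Adipocytes also run a circadian clock: CLOCK and BMAL1 (gene Arntl) activate the period, cryptochrome and REV-ERB genes (Nr1d1, Nr1d2), whose products repress the activators. The same activators drive the PAR-domain factors Dbp, Tef and Hlf, which carry the rhythm to downstream genes. Because each of these genes peaks at its own hour, a single time of collection gives one point on each rhythm, and a group difference in level cannot be told apart from a shift in time. The sources used here do not give the hour of collection.

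The libraries held 505336 to 720220 estimated counts in sedentary and 583511 to 688566 in trained mice, and did not differ beyond the spread between mice (two-sided exact permutation test, p = 0.992, where the smallest p that 5 against 5 allows is 0.00794). The share of counts from mitochondrially encoded genes was 14.8% ± 1.96 (SD, n = 5) in sedentary and 15.1% ± 2.44 in trained mice (exact permutation p = 0.825). The adipocyte markers Adipoq, Plin1, Lipe, Cidec and Cfd were present in all 10 libraries, with 1522 to 3587 Adipoq reads in sedentary and 1832 to 3232 in trained libraries. The epithelial markers Krt5 and Krt14 and the mesothelial marker Upk3b were at 0 in all 10.

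Skeletal muscle transcripts differed widely between single libraries within each group. Reads of the 35 muscle fibre genes, which include skeletal actin, creatine kinase and the fast myosin, made up 3.71, 0.0633, 0.349, 0.260 and 0.155% of counts in sedentary replicates 1 to 5. In trained replicates 1 to 5 they made up 1.13, 0.0927, 12.7, 6.15 and 1.93%. Trained replicate 3 stood highest and trained replicates 3, 4 and 5 and sedentary replicate 1 were the 4 libraries with over 10000 muscle reads (called muscle-rich below), while trained replicate 2 was among the lowest, so the groups overlapped. A fit without the muscle-rich libraries keeps only trained replicates 1 and 2 in the trained group, both among the first 9 scWAT library codes. Of the 35 genes 29 were measured well enough to test. All 29 had a positive log2 fold change (trained minus sedentary), with a median of 2.49. None had an unadjusted p under 0.05, beside 5.32% of all genes tested. The median was 1.34 without trained replicate 3 and 4.74 without sedentary replicate 1, and it was −1.04 among the first 9 scWAT library codes alone and 5.51 among the last 11. On HFD the same genes had a median of −4.60: 0.0721 to 9.52% of counts in sedentary and 0.0657 to 0.266% in trained mice. In bulk tissue, more muscle fibres in the sample and more RNA per fibre cannot be told apart.

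The fibre type of these transcripts was narrow. Myh4, the myosin heavy chain of the fastest glycolytic fibres, took 92.9% of adult myosin heavy chain reads in sedentary replicate 1 and 89.5, 98.8, 99.2 and 90.7% in trained replicates 1, 3, 4 and 5, the 5 libraries with the most myosin reads. In triceps of the same chow mice the Myh4 share was 85.2 to 95.9% in sedentary and 63.5 to 87.8% in trained animals. All 4 of these trained scWAT libraries thus lay above every trained triceps library. The myosin genes are near-identical neighbours, and their 3′ tags were divided between them by estimation.

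Lymph node transcripts split the libraries in another way, and equally in both groups. Reads of lymph node stroma genes (such as Ccl21a, Ccl19 and Cxcl13, the chemokines that guide lymphocytes into nodes) numbered 9, 1191, 7, 765 and 481 in sedentary replicates 1 to 5. They numbered 6, 939, 0, 437 and 885 in trained replicates 1 to 5. In each group replicates 2, 4 and 5 were thus high and replicates 1 and 3 at or near 0. B cell genes such as Cd79a followed the same libraries with 118, 737, 80, 673 and 420 reads in sedentary and 50, 616, 71, 353 and 674 in trained mice. T and NK cell genes did so too, with 29, 1265, 42, 665 and 411 reads in sedentary and 31, 915, 28, 327 and 747 in trained mice. The list medians for running were near 0 and changed sign between alternatives: −0.14 over 5 stroma genes, −0.14 over 11 B cell genes and −0.24 over 16 T and NK cell genes. In the HFD libraries stroma reads were 5 to 24 in sedentary and 6 to 20 in trained mice.

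**Figure D1:**
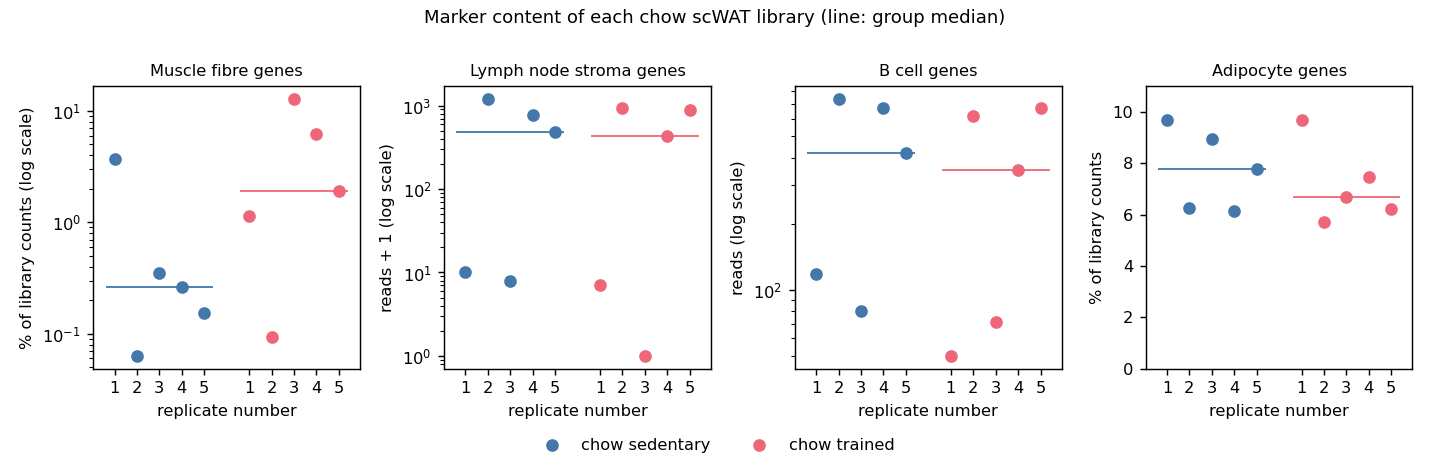
Each point is 1 chow scWAT library, by replicate number, with sedentary mice in blue and trained mice in red; lines are group medians, and the 3 left panels have log axes. Muscle fibre genes reach 12.7% of counts in trained replicate 3, lymph node and B cell reads are high in replicates 2, 4 and 5 of both groups, and adipocyte genes lie between 5.70% and 9.70% in every library.

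Liver transcripts went with the library codes in the file headers rather than with the groups, with 818, 926, 828, 420 and 271 reads in sedentary and 1059, 839, 197, 225 and 246 in trained replicates. The chow libraries among the first 9 scWAT codes, sedentary replicates 1 to 3 and trained replicates 1 and 2, were high, and those among the last 11 were lower. The break between the stretches was placed where the liver share of counts fell most along the codes. High values before it and low values after it thus follow in part from that choice. Both stretches hold both groups, and values within each stretch are given below for the main genes.

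No single gene passed the test for running. Of 7069 genes tested with edgeR, 0 (0%) had an adjusted p under 0.05, against 376 (5.32%) with an unadjusted p under 0.05, of which 161 (2.28%) were higher and 215 (3.04%) lower in trained mice. In 21 genes (0.297%) all trained libraries lay above all sedentary ones, and in 27 (0.382%) all lay below. The median over all genes tested was −0.0007, with 3523 positive and 3546 negative values. DESeq2 called 3 genes (0.0425%), Dbp, Slc5a6 and Tef, and limma voom called 0. With the replicate number as a block edgeR called 2 genes (0.0283%), Dbp and Slc5a6, and with muscle and B cell sums as covariates it called 12, among them Dbp, Slc5a6, Pank3, Angptl2, Nrg4 and Napepld. Leaving out trained replicate 3 gave 5 calls (Ciart, Dbp, Napepld, Slc5a6 and Tef), leaving out sedentary replicate 2 gave 1 (Dbp), and leaving out any other chow library gave 0.

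Clock output genes had some of the lowest p-values. Dbp, a PAR-domain factor driven directly by CLOCK and BMAL1 (chromosome 7, 45705088 to 45710203, GRCm38 by GENCODE vM21, protein-coding), was at 8.14, 19.8, 0, 4.90 and 6.77 counts per 1000000 on TMM-scaled totals (CPM) in sedentary replicates 1 to 5 and at 66.6, 62.3, 13.8, 45.6 and 36.6 CPM in trained replicates 1 to 5. Trained replicate 3 alone lay within the sedentary range; the 0 allows up to 4.81 CPM in that library, and the sums behind these values are 23 and 125 reads. The log2 fold change was 2.51 (SE 0.48, adjusted p = 0.0972). It was 2.81 in the first and 2.40 in the second stretch of library codes, 3.05 without the 4 muscle-rich libraries (adjusted p = 0.0303) and 2.5 with the replicate block (adjusted p = 0.0374). The fit without the muscle-rich libraries rests on trained replicates 1 and 2 alone and leaves out trained replicate 3.

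Tef, a second PAR-domain factor (chromosome 15, 81802421 to 81826863), was at 35.8, 32.4, 12.8, 19.6 and 40.6 CPM in sedentary and 90.1, 67.7, 45.2, 98.7 and 56.6 CPM in trained replicates. All trained libraries lay above all sedentary ones, with a log2 fold change of 1.33 (SE 0.28, adjusted p = 0.189); leaving out trained replicate 3 gave an adjusted p of 0.0408. Usp2, a deubiquitinase with a clock-driven transcript, was at 14.6, 1.80, 6.42, 4.90 and 3.38 CPM in sedentary and 19.8, 14.2, 37.3, 34.2 and 24.9 CPM in trained mice, a log2 fold change of 2.01 (SE 0.56, adjusted p = 0.424). Only trained replicate 2 lay below the highest sedentary library for Usp2. With muscle and B cell sums as covariates its log2 fold change was 1.24, and the part of muscle reads in it was not tested. Tsc22d3, a glucocorticoid-induced regulator counted in the same list, had 0.78 (SE 0.29, adjusted p = 0.759), with sedentary replicate 3, at 135 CPM, inside the trained range; without the lymph node libraries its log2 fold change was 0.11. All 4 clock output genes tested were positive with an unadjusted p under 0.05 (median 1.67), beside 2.28% of all genes tested, and 2 more listed genes were too low to test.

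Among the repressors of the clock, 4 of 6 tested genes were positive (median 0.70). Of the 6, 2 were higher at an unadjusted p under 0.05, beside 2.28% of all genes tested. Nr1d2, which encodes REV-ERB beta (chromosome 14, 18204054 to 18239127), was at 30.9, 39.5, 20.9, 16.3 and 25.4 CPM in sedentary and 66.6, 51.6, 62.9, 70.2 and 33.3 CPM in trained mice; only trained replicate 5 lay below the highest sedentary library. Its log2 fold change was 1.09 (SE 0.26, adjusted p = 0.321). Its partner Nr1d1, which encodes REV-ERB alpha, had 60.2, 48.5, 27.3, 29.4 and 62.6 CPM in sedentary and 36.0, 21.4, 53.0, 53.1 and 38.3 CPM in trained mice, with wide overlap and a log2 fold change of −0.19 (SE 0.27, adjusted p = 0.998) whose sign changed in 2 alternatives. The period gene Per3 was at 26.0, 18.0, 14.4, 8.17 and 22 and 52.2, 30.3, 11.8, 22.8 and 26.6 CPM, with 0.70 (SE 0.32, adjusted p = 0.903) and overlap between the groups. Per1 had 0.71 (SE 0.49), Bhlhe40, a repressor that binds the same elements as CLOCK, 0.92 (SE 0.47) and the cryptochrome gene Cry2 −0.37 (SE 0.34), each with an unadjusted p over 0.05. Without the lymph node libraries these were 1.40, 0.17 and −1.01. Of the activators 3 were testable, and Clock itself had −0.49 (SE 0.27, adjusted p = 0.909), with the opposite sign in the second stretch of library codes alone.

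Of the 21 genes on the clock lists, 13 passed the filter on low counts and 8 did not, among them the activators Arntl and Npas2. Ciart, a circadian repressor of CLOCK and BMAL1, had 2, 0, 1, 0 and 1 reads in sedentary and 10, 12, 3, 9 and 9 in trained replicates, so that every trained library lay above every sedentary one. Per2 had 2, 2, 2, 2 and 1 against 7, 7, 2, 5 and 4 reads and Hlf, the third PAR-domain factor, 5, 3, 6, 4 and 4 against 20, 7, 5, 13 and 9. On the CPM scale the groups did not overlap for either gene, though in reads trained replicate 3 lay within the sedentary range for both. For Per2 trained replicate 3 was at 3.929 CPM beside 3.595 CPM in sedentary replicate 2. For Hlf it was at 9.822 CPM beside 9.624 CPM in sedentary replicate 3. The share of genes without overlap was not counted among genes below the filter. Arntl had 5, 4, 4, 9 and 5 reads in sedentary and 0, 3, 2, 1 and 2 in trained replicates, every trained library lying below every sedentary one in CPM, and Npas2, an activator closely related to Clock, 8, 0, 3, 2 and 3 against 0, 0, 0, 0 and 1. The fit with no filter on low counts tested 23534 genes and called 30 (0.127%), Ciart among them at 3.37 (SE 0.62, adjusted p = 2.14e-04). That fit also gave adjusted p of 5.44e-10 for Dbp and 1.99e-07 for Slc5a6, neither of them called in the main fit. Its adjusted p values thus cannot be compared with those of the main fit. In that fit Hlf had 1.41 (adjusted p = 0.315), Per2 1.54 (0.753), Arntl −1.56 (0.753) and Npas2 −3.30 (0.371); Bhlhe41 and Cry1 were positive and Nfil3 negative, with adjusted p of 0.753, 0.783 and 0.854.

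**Figure D2:**
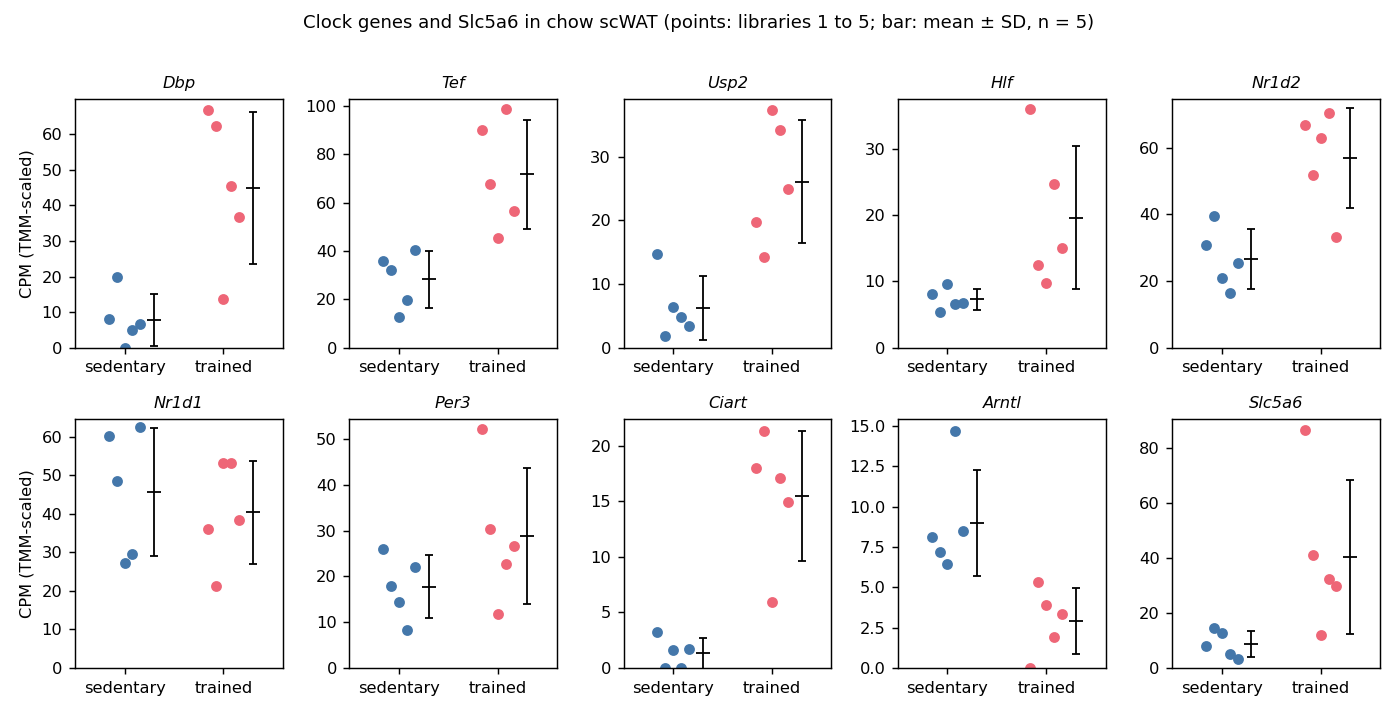
Points are CPM on TMM-scaled totals (linear axes from 0) in sedentary (blue) and trained (red) chow scWAT libraries, in replicate order from left to right, with the mean ± SD of 5 libraries beside them. Tef and Ciart do not overlap between the groups and Arntl lies lower in all trained libraries, while Nr1d1 overlaps widely. For Hlf the groups nearly touch, with trained replicate 3 at 9.82 CPM and sedentary replicate 3 at 9.62 CPM. The lowest trained library for Dbp, Tef, Hlf, Per3, Ciart and Slc5a6 is trained replicate 3.

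Promoter sequences are shown for 4 of these genes because CLOCK and BMAL1 bind the E-box and the PAR-domain factors the D-box, and the members named above fall on both sides of that relay. RefSeq start-site windows on GRCm38.p6, from 250 bases before to 50 after the start, were on hand for 18 of the 21 listed genes, and each sequence runs 5′ to 3′ on the gene's strand. Capitals mark the E-box CACGTG and the D-box TTATGTAA or TTACGTAA, searched on both strands; these motifs do not overlap each other. Ciart (chr3:95882179-95882478, minus strand) has 3 E-boxes, Tef (chr15:81802423-81802722, plus strand) 1, Per3 (chr4:151044616-151044915, minus strand) 2 D-boxes, and Dbp (chr7:45704997-45705296, plus strand) neither within this window.
Ciart: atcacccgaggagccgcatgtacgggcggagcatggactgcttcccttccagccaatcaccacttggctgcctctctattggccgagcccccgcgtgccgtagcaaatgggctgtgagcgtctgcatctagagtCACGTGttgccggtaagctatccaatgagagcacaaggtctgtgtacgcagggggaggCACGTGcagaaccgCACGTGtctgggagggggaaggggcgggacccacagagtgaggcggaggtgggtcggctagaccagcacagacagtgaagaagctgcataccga
Tef: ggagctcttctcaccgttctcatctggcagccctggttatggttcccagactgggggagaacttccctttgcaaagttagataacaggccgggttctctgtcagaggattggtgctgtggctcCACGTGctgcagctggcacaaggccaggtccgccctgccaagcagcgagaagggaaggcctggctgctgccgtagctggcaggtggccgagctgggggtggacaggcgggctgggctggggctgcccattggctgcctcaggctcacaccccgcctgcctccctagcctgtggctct
Per3: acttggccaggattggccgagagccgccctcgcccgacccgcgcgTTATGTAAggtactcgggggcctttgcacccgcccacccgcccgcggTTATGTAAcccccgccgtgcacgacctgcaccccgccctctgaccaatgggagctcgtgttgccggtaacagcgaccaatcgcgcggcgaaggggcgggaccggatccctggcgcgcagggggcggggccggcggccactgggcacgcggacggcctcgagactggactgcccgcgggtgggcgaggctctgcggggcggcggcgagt
Dbp: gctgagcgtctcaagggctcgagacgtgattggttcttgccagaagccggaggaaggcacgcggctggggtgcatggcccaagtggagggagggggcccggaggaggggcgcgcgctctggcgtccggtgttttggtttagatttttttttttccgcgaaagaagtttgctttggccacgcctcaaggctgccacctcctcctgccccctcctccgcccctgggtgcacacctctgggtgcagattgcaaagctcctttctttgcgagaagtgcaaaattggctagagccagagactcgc
Over all genes with a window, 8.09% held an E-box and 1.23% a D-box in at least 1 window. Among the 18 clock genes 5 held an E-box (Bhlhe41, Ciart, Cry1, Per1 and Tef) and 1, Per3, a D-box. A match is a run of letters and not a measured binding site.

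Outside the clock, Slc5a6 stood first. It encodes a sodium-dependent transporter that takes up biotin and pantothenate, the precursor of coenzyme A (chromosome 5, 31036036 to 31048924). Its level was 8.14, 14.4, 12.8, 4.90 and 3.38 CPM in sedentary and 86.5, 40.9, 11.8, 32.3 and 29.9 CPM in trained mice, with trained replicate 3 again inside the sedentary range. The log2 fold change was 2.19 (SE 0.41, adjusted p = 0.0972). It was 2.42 and 2.5 within the stretches of library codes, and 2.82 without the muscle-rich libraries (adjusted p = 0.00449). That last fit kept only trained replicates 1 and 2 in the trained group and left out trained replicate 3. Pank3, a pantothenate kinase that opens coenzyme A synthesis from the same vitamin, was at 133, 111, 210.1, 108 and 139 CPM in sedentary and 432, 259.9, 161, 203 and 225 CPM in trained mice, a log2 fold change of 0.86 (SE 0.21, adjusted p = 0.321). Trained replicates 3 and 4 lay below the highest sedentary library.

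Of the other genes with the lowest p among those higher in trained mice, Angptl2, a secreted angiopoietin-like protein, was at 26.0, 32.4, 33.7, 14.7 and 30.4 CPM in sedentary and 115, 48.1, 37.3, 51.2 and 48.2 CPM in trained mice. These groups did not overlap, and the log2 fold change was 1.12 (SE 0.26, adjusted p = 0.321). Nrg4, a growth factor that adipocytes secrete, was at 74.9, 104, 77.0, 76.8 and 93.0 against 225, 151, 98.2, 119.6 and 109.8 CPM (log2 fold change 0.72, SE 0.22, adjusted p = 0.633); trained replicate 3 lay below the highest sedentary library. Another 4 genes had groups that did not overlap: Usp46, a deubiquitinase (1.11, SE 0.28), Slc38a6, an amino acid transporter family member (1.5, SE 0.38), Akap7, an anchor of protein kinase A (0.78, SE 0.20), and Pepd, a peptidase that frees proline from collagen fragments (0.81, SE 0.23). Their adjusted p lay between 0.321 and 0.450. Narf (0.97) and the phosphomannomutase gene Pmm1 (0.74) overlapped between the groups.

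Among the genes lower in trained mice, Napepld, an enzyme that makes N-acylethanolamine lipids, had the lowest p (chromosome 5, 21662901 to 21701396). It was at 42.3, 23.4, 41.7, 22.9 and 23.7 CPM in sedentary and 12.6, 8.90, 21.6, 11.4 and 9.98 CPM in trained mice, without overlap, and its log2 fold change was −1.26 (SE 0.28, adjusted p = 0.220). Hoxa10, a homeobox gene of posterior body identity, was at 27.7, 10.8, 24.1, 9.81 and 16.9 against 9.01, 1.78, 3.93, 7.59 and 1.66 CPM (log2 fold change −1.88, SE 0.45, adjusted p = 0.321); S100b, a calcium-binding protein of glia and adipocytes, was at 27.7, 30.6, 19.2, 63.8 and 30.4 against 5.4, 17.8, 13.8, 9.49 and 1.66 CPM (log2 fold change −1.84, SE 0.49, adjusted p = 0.409). Neither gene overlapped between the groups. Cdkn1a, the cell cycle inhibitor p21, was at 17.9, 5.39, 27.3, 31.1 and 32.1 CPM in sedentary and 1.80, 5.34, 11.8, 5.69 and 8.32 CPM in trained mice, with sedentary replicate 2 as low as the trained libraries (log2 fold change −1.78, SE 0.44, adjusted p = 0.321).

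The remaining lower genes by this rule were Ednrb, an endothelin receptor (−1.04, SE 0.27), Slc16a1, the lactate transporter MCT1 (−1.05, SE 0.27), Akap12, a kinase scaffold (−1.02, SE 0.26), Pxdn, a matrix peroxidase (−0.84, SE 0.23), Rarres2, which encodes the adipokine chemerin (−0.63, SE 0.18), Ccnt1, a transcription elongation cyclin (−0.90, SE 0.25), and Dpt, a matrix protein that binds decorin. Dpt was at 436, 207, 265, 206 and 269 CPM in sedentary and 218, 125, 159, 93.0 and 151 CPM in trained mice (log2 fold change −0.89, SE 0.25, adjusted p = 0.409), and only trained replicate 1 lay above the lowest sedentary library.

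Genes linked to the size of the fat store had negative values throughout, with no member called. All 8 tested genes of that list were negative, 4 of them with an unadjusted p under 0.05 (3.04% of all genes were lower at that p), and the median was −0.67. Lep, the leptin gene, was at 413, 120.4, 326, 142 and 109.9 CPM in sedentary and 162, 142, 96.3, 87.3 and 93.1 CPM in trained mice (log2 fold change −0.94, SE 0.35, adjusted p = 0.757). Sedentary replicates 1 and 3 stood high, and the other 3 sedentary libraries lay within the trained range. Mest, an imprinted gene whose level goes with adipocyte enlargement, was at 53.7, 8.99, 27.3, 16.3 and 16.9 against 10.8, 7.12, 15.7, 9.49 and 4.99 CPM (log2 fold change −1.37, SE 0.48, adjusted p = 0.726). Sncg, gamma-synuclein, an abundant adipocyte protein, was at 2059, 793, 1493, 1066 and 1284 against 895, 547, 970.4, 689 and 732 CPM (log2 fold change −0.81, SE 0.21, adjusted p = 0.323). Npr3, the receptor that clears natriuretic peptides, was at 277, 91.7, 192, 114 and 99.8 against 135, 55.2, 55.0, 55.0 and 76.5 CPM (log2 fold change −1.04, SE 0.35, adjusted p = 0.664). The sedentary libraries highest for all 4 genes, replicates 1 and 3, were also the 2 with fewer than 10 lymph node stroma reads; the part of either in these values was not tested. Without the 3 lymph node libraries of each group the list median was −0.85, and without the 4 muscle-rich libraries, one of which is sedentary replicate 1, it was −0.17, where Lep had −0.20 and Sncg −0.69. The fit without the muscle-rich libraries kept only trained replicates 1 and 2 in the trained group.

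Collagen genes were highest in the same libraries. All 13 collagen genes tested were negative (median −0.38), 2 of them with an unadjusted p under 0.05 (3.04% of all genes were lower at that p). These were the basement membrane collagens Col4a1 (−0.64, SE 0.25, adjusted p = 0.779) and Col4a2 (−0.52, SE 0.21, adjusted p = 0.826). Col4a1 was at 478, 208, 417, 181 and 254 CPM in sedentary and 294, 126, 242, 177 and 151 CPM in trained mice, so the groups overlapped and sedentary replicates 1 and 3 were again the highest. Of 29 other matrix and matrix-processing genes 19 were negative (median −0.18). At an unadjusted p under 0.05 stood 6 of the 29, all lower, beside 3.04% of all genes tested. The basement membrane linker Nid1 had −0.65 (SE 0.22, adjusted p = 0.664) and the laminin chain Lamc1 −0.61 (SE 0.21, adjusted p = 0.664). The collagen median was −0.52 in the first and −0.070 in the second stretch of library codes, and the wider matrix list had −0.51 and 0.21, opposite in sign.

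**Figure D3:**
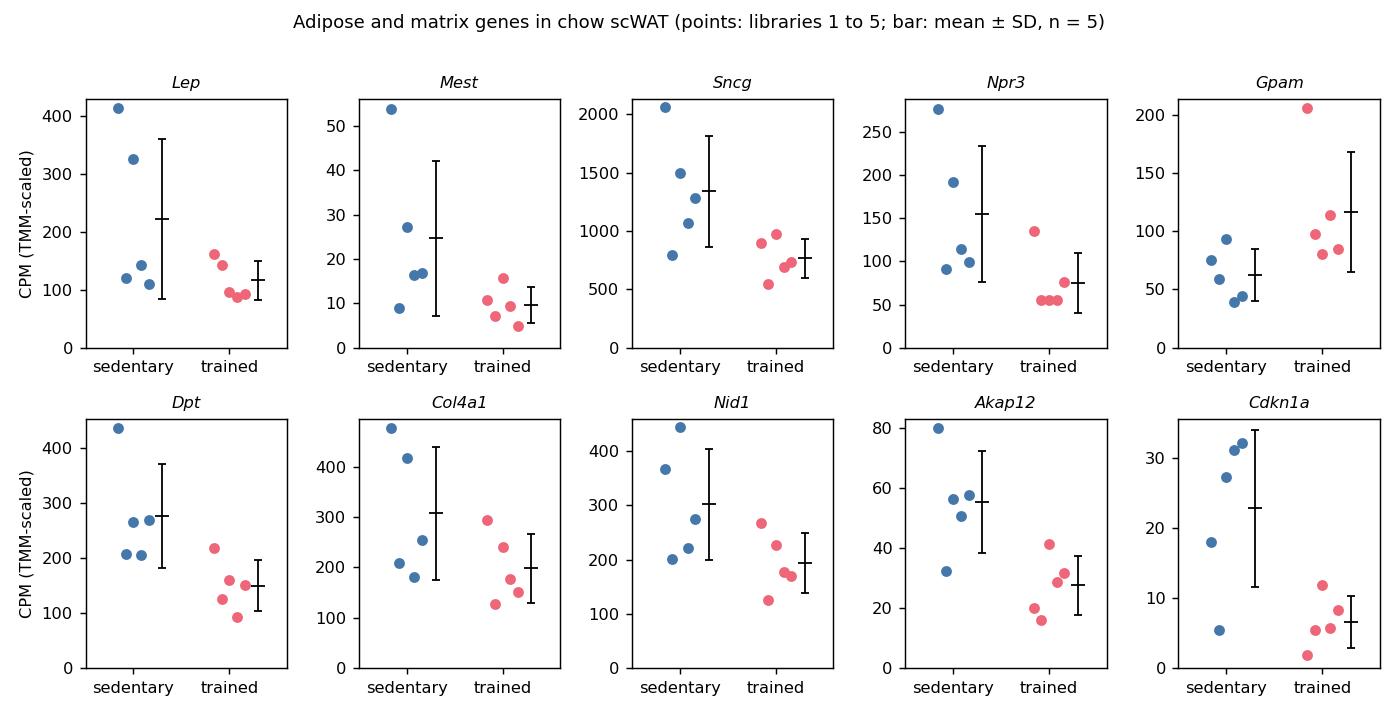
Points are CPM on TMM-scaled totals (linear axes from 0) in sedentary (blue) and trained (red) chow scWAT libraries, in replicate order from left to right, with the mean ± SD of 5 libraries beside them. Sedentary replicates 1 and 3 are the highest libraries for Lep, Mest, Sncg, Npr3, Col4a1 and Nid1, and trained replicate 1 is the highest trained library for Lep, Npr3, Gpam, Dpt, Col4a1 and Nid1.

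Lipid synthesis genes leaned the other way. Of 11 triglyceride synthesis genes 9 were positive (median 0.38), and 3 were higher at an unadjusted p under 0.05, beside 2.28% of all genes tested. These were Gpam, the mitochondrial enzyme of the first acylation of glycerol phosphate, the next acyltransferase Agpat2 and Gpat3. Gpam was at 74.9, 59.3, 93.0, 39.2 and 44.0 CPM in sedentary and 205, 97.9, 80.5, 114 and 84.8 CPM in trained mice (log2 fold change 0.90, SE 0.29, adjusted p = 0.637), with trained replicate 1 far above the rest and trained replicates 3 and 5 inside the sedentary range. Agpat2 had 0.65 (SE 0.29, adjusted p = 0.882) and Gpat3 0.56 (SE 0.25, adjusted p = 0.882). The list median was 0.12 without trained replicate 1. Of 17 fatty acid synthesis genes 13 were positive (median 0.28) and the median was −0.030 without that library. The desaturase gene Scd1, the most abundant of them, had −0.32 (SE 0.28), its neighbour Scd2 −0.86 (SE 0.38, adjusted p = 0.882) and the carboxylase gene Acaca 0.29 (SE 0.28).

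Mitochondrial genes had small positive values. Of 37 complex I genes 33 were positive (median 0.15), and of 41 genes of complexes II to V 38 (median 0.13). All 13 mitochondrially encoded genes were positive (median 0.16). Of these 91 genes 0 had an unadjusted p under 0.05, beside 5.32% of all genes tested. These medians depend on the scaling: TMM shifted the median log2 fold change of all genes by 0.12 relative to total counts, and on total counts they were 0.027, −0.0038 and 0.033. Tfb2m, a mitochondrial transcription factor, had 0.68 (SE 0.22, adjusted p = 0.637). Glycolysis genes had a median of 0.55 over 16 genes, with the highest values in the muscle isoforms Pgam2 and Eno3, and 0.17 with muscle and B cell sums as covariates. Of 13 heat production genes 8 were positive (median 0.0074). None of 20 fatty acid oxidation genes had an unadjusted p under 0.05 (median −0.017), beside 5.32% of all genes tested. That list is too short for a count of none to be told apart from this share. Pdk4, the kinase that shuts pyruvate dehydrogenase, had −1.0 (SE 0.47, adjusted p = 0.903), and −0.36 without the lymph node libraries.

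The immune and vascular lists are set beside the 5.32% of all genes tested that had an unadjusted p under 0.05. None of 15 macrophage, 9 MHC class II, 14 interferon-induced or 6 cytokine and chemokine genes had such a p, with medians of −0.018, 0.044, −0.0096 and −0.21. Each of these lists is too short for a count of none to be told apart from that share. Macrophage reads followed the lymph node libraries, with 359, 1131, 344, 973 and 572 in sedentary and 185, 1145, 199, 548 and 1185 in trained replicates. Of 13 endothelial genes 9 were negative (median −0.28), and the median was −0.67 in the first and 0.14 in the second stretch of library codes; the tight junction gene Cldn5 had −1.09 (SE 0.34, adjusted p = 0.637). Of 12 acute phase and complement genes 9 were negative (median −0.18). At an unadjusted p under 0.05, 2 of the 12 were lower, beside 3.04% of all genes tested. Wfdc21, an acute-phase protein, had −0.69 (SE 0.29), and the thioredoxin reductase gene Txnrd1 −0.88 (SE 0.28, adjusted p = 0.656). Of 12 glucocorticoid targets and metallothioneins 9 were positive (median 0.26). At an unadjusted p under 0.05, 2 were higher and 2 lower, beside 2.28% and 3.04% of all genes tested. All 5 smooth muscle and pericyte genes tested were negative (median −0.12).

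**Figure D4:**
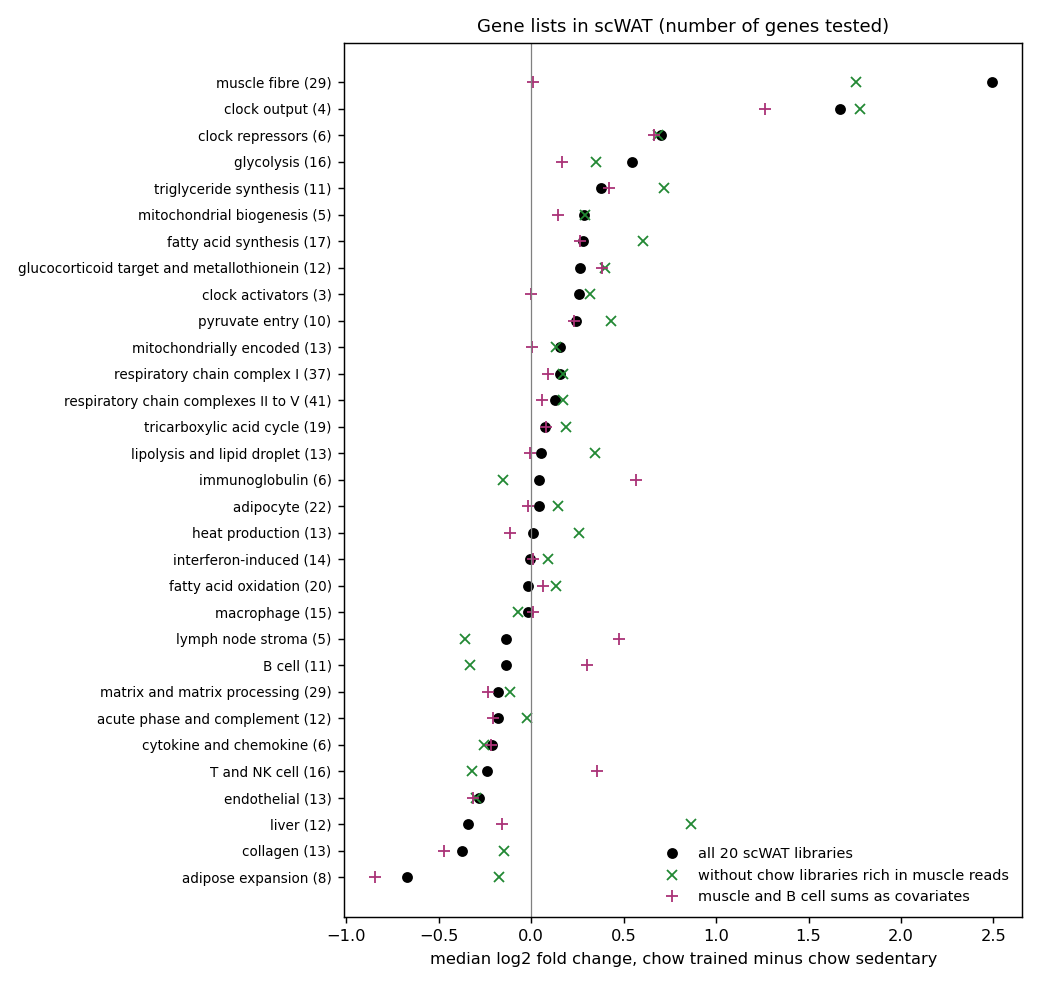
Each row is a gene list with the number of genes tested; symbols are the median log2 fold change (chow trained minus chow sedentary) in the fit on all 20 scWAT libraries (circles), without the 4 chow libraries rich in muscle reads (crosses) and with muscle and B cell sums as covariates (plus signs). The clock output median is 1.67, 1.78 and 1.26 in these fits, the muscle fibre median 2.49, 1.76 and 0.0079, and the adipose expansion median −0.67, −0.17 and −0.84. Without the muscle-rich libraries, trained replicates 1 and 2 alone stand for the trained group. The muscle covariate is the sum of the same muscle fibre genes, and the libraries left out were picked by that sum. The muscle fibre values marked by crosses and plus signs thus follow in part from that choice.

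The same contrast on HFD, in other mice, called 71 of the 7069 genes (1.00%), and 102 (1.44%) with the replicate block. Some of the genes that led on chow were called there: Dbp 2.90 (SE 0.49, adjusted p = 0.00509), Slc5a6 2.30 (SE 0.40, adjusted p = 0.00509), Tef 1.43 (SE 0.28, adjusted p = 0.00728) and Nr1d2 1.23 (SE 0.25, adjusted p = 0.0131). Pank3 rose by 0.92 (SE 0.21), Nrg4 by 1.24 (SE 0.22) and Per3 by 1.57 (SE 0.29) on HFD, and Cdkn1a had −2.08 (SE 0.37) and Lep −1.58 (SE 0.34), with adjusted p between 0.00509 and 0.0271. The differences between the diets for Dbp, Slc5a6, Tef and Nr1d2 were 0.39 (SE 0.72), 0.11 (SE 0.58), 0.10 (SE 0.40) and 0.14 (SE 0.36), each smaller than its SE. Other leading genes had a smaller value on HFD or the opposite sign, none of them called: Napepld −0.38 (SE 0.25), Hoxa10 0.25 (SE 0.37), Usp46 −0.26 (SE 0.25) and Slc38a6 0.055 (SE 0.32), beside −1.26, −1.88, 1.11 and 1.5 on chow. Usp2 had −0.98 (SE 0.63) on HFD, an interaction of −2.98 (SE 0.85, adjusted p = 0.435). The clock output median was 0.23 on HFD, with 2 of the 4 genes positive, Dbp and Tef, both called.

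The test of the diet by running interaction called 0 genes (0%) with edgeR, against 438 (6.20%) at an unadjusted p under 0.05; limma voom called 0, DESeq2 33 and the fit with muscle and B cell sums as covariates 4, Nr1d1, Sgk1, Thbs1 and Tsc22d3. The glucocorticoid-responsive genes Tsc22d3 and Sgk1 had opposite signs on the diets, where the chow value of Tsc22d3 is the one that was 0.11 without the lymph node libraries: 0.78 and 0.69 on chow, −1.01 and −0.81 on HFD. Sgk1, a serum- and glucocorticoid-induced kinase, was at 30.9, 35.9, 46.5, 37.6 and 59.2 CPM in chow sedentary and 77.5, 81.9, 76.6, 55.0 and 49.9 CPM in chow trained mice, with sedentary replicate 5 above trained replicates 4 and 5. Their interaction was −1.79 (SE 0.41, adjusted p = 0.329) and −1.5 (SE 0.37, adjusted p = 0.366), with adjusted p of 0.00486 and 0.0147 with the covariates. Thbs1, thrombospondin 1, on HFD fell by 2.27 (SE 0.30, adjusted p = 3.63e-04) and had −0.10 (SE 0.40) on chow, a value that changed sign in 3 alternatives, at 14.6, 14.4, 12.8, 4.90 and 11.8 CPM in sedentary and 14.4, 7.12, 11.8, 13.3 and 8.32 CPM in trained mice; the interaction was −2.17 (SE 0.51, adjusted p = 0.329, with the covariates 0.0147). For Nr1d1 it was 1.38 (SE 0.37, adjusted p = 0.435, with the covariates 0.0147), from −0.19 on chow and 1.19 on HFD.

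In vWAT of the same chow mice running changed 41 of 6990 genes (0.587%). Dbp rose there by 2.55 (SE 0.39, adjusted p = 2.93e-04), Slc5a6 by 2.30 (SE 0.35, adjusted p = 6.39e-04), Tef by 1.23 (SE 0.25, adjusted p = 0.0105) and Nr1d2 by 1.28 (SE 0.26, adjusted p = 0.0104), beside 2.51, 2.19, 1.33 and 1.09 in scWAT. Gpam rose by 1.06 in vWAT (adjusted p = 0.00232), while Sncg, Npr3, Dpt and Akap12 fell there by 0.95, 0.78, 0.75 and 0.99 (adjusted p = 0.00407, 0.00722, 0.0105 and 0.0279), against −0.81, −1.04, −0.89 and −1.02 in scWAT. The test of the depot difference, with the animal as a block, called 0 of 6743 genes (0%) with edgeR, against 210 (3.11%) at an unadjusted p under 0.05. For Dbp the difference (scWAT minus vWAT) was −0.020 (SE 0.32), for Slc5a6 −0.24 (SE 0.50) and for Tef 0.13 (SE 0.33). Thbs1 and Napepld had larger differences: Thbs1 1.68 (SE 0.43), having fallen by 1.77 in vWAT (adjusted p = 1.62e-04), and Napepld −1.20 (SE 0.37), each with an adjusted p of 1.

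**Figure D5:**
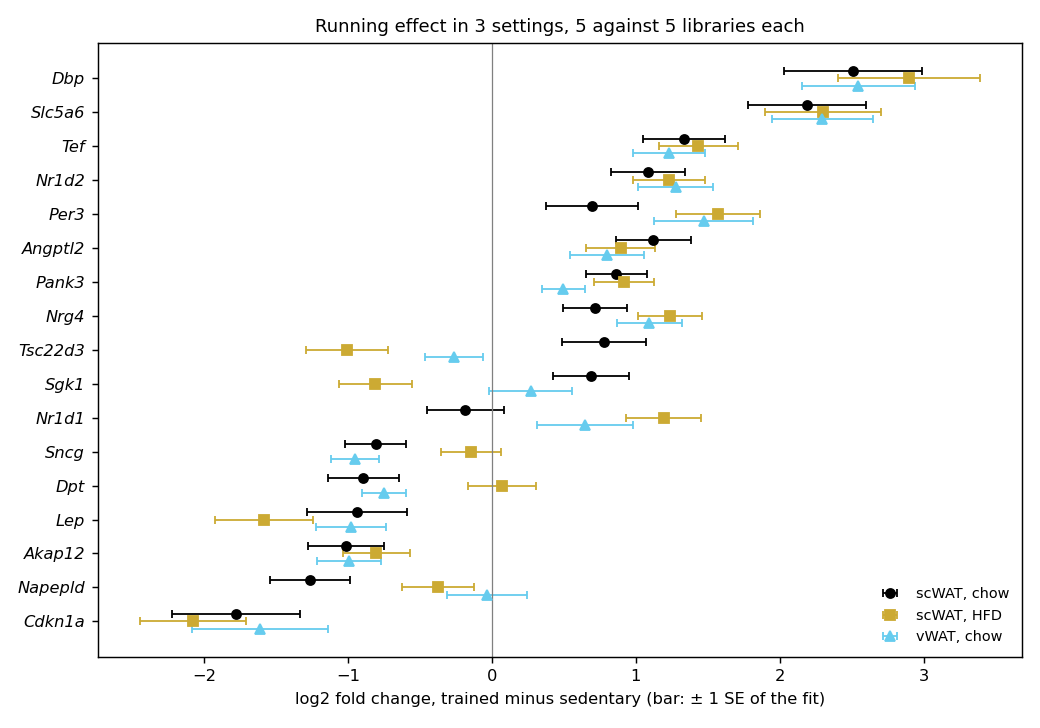
Points are log2 fold changes (trained minus sedentary) with bars of ± 1 SE of the fit in scWAT on chow (black circles), scWAT on HFD (yellow squares) and vWAT on chow (blue triangles), 5 against 5 libraries each. Dbp, Slc5a6, Tef, Nr1d2 and Cdkn1a lie close together in the 3 settings, while Tsc22d3, Sgk1 and Nr1d1 on HFD lie across 0 from their values on chow.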

How the data were processed

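Gene expression was measured by 3′ RNA sequencing of total RNA, 1 library per mouse and tissue. The submitters' processing notes name Salmon 0.14.2 and mm10; for strand and molecular identifiers the setting is "not given in the sources used here". For each gene and library the authors deposited estimated counts rounded to whole numbers (54352 genes, 60 libraries), which were tested, and log2 CPM values, which the deposited table holds beside them and which were not used. Chow scWAT libraries held 505336 to 720220 counts, so a count of 0 allows (3 counts) 4.81 to 5.89 CPM; this covers counting error only.

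Counts of the 20 scWAT libraries in 4 groups were fitted with edgeR 4.0.16 in R 4.3.3 (TMM scaling, filterByExpr, robust quasi-likelihood test, Benjamini-Hochberg adjustment over all genes tested, threshold 0.05). CPM values use TMM-scaled totals. In vWAT the same fit was made; the depot difference used both fats of the chow mice with the animal as a block. DESeq2 1.42.0 and limma 3.58.1 (voom), other scalings, no filter, covariates, the replicate block, stretches of library codes and leaving out libraries were alternatives. The code was tested on simulated data. Single values were compared by exact permutation tests. Figures were drawn with matplotlib 3.10.9.

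Same-numbered sedentary and trained libraries deviated together from their group means (correlations 0.387, 0.559, 0.338, 0.125 and 0.251). The same-numbered library was the best match from both sides only for replicate 2. The numbers come from the sample titles and different mice carry them, so the main fit held no block. The fit with the replicate number as a block was an alternative. No 2 libraries of a group held the same values or agreed within sampling noise. The genes described are the 3 clock lists, up to 4 most abundant and 2 lowest-p members of each other list, the 12 higher and 12 lower genes with the lowest p outside the muscle and lymphocyte lists (mean log2 CPM 4 or more), genes called in an alternative with 10 or fewer calls, and a watched set. Fold changes are given for 53 of them, each refitted under the alternatives, and for low clock genes from the unfiltered fit. The lists, members and tests were chosen with earlier results of these data known. Gene positions are from GENCODE vM21.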

Additional observations from a re-analysis of the deposited data

Results flagged for a closer look

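In 128 sets of 5 chow libraries (a gene or content value in 1 group) the highest or lowest library was compared with its neighbour by Dixon's ratio, with a critical value of 0.71. It was exceeded in 13. The chance rate of about 5% holds for independent, normally distributed values. These sets are untransformed values of the same 10 libraries, so 13 of 128 cannot be read as an excess. Muscle fibre genes made up 3.71% of counts in sedentary replicate 1, the next highest sedentary library being at 0.349%.

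Trained replicate 1 stood above the other 4 trained libraries in 5 genes: Angptl2 at 115 CPM, Npr3 at 135 CPM, Gpam at 205 CPM, Gpat3 at 93.7 CPM and Acaca at 1212 CPM. Sedentary replicate 1 stood above the other sedentary libraries for Dpt at 436 CPM, Wfdc21 at 288 CPM and Narf at 30.9 CPM. Narf was also set apart in trained replicate 3, at 53.0 CPM. Tsc22d3 in sedentary replicate 3 was at 135 CPM against 76.5 CPM in the next library, and S100b in sedentary replicate 4 at 63.8 CPM against 30.6 CPM. Thbs1 in sedentary replicate 4, at 4.90 CPM, was the lowest of its group, below 11.8 CPM.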

How the results depend on the processing

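The count of genes called for running on chow, 0, was 30 with no filter on low counts, 3 with DESeq2, 2 with the replicate block, 1 with the stretch of library codes as a factor, 12 with muscle and B cell sums as covariates and 3 without the 4 muscle-rich libraries (chosen after seeing the data: Dbp, Hoxb2 and Slc5a6). Leaving out 1 chow library gave 0 to 5. It stayed 0 with DESeq2 size factors, total counts, voom, the 10 chow libraries alone, either stretch alone, without the lymph node libraries and without muscle genes. On HFD the block gave 102 calls against 71; it ended no call printed for running on either diet. The interaction count, 0, was 58 unfiltered, 33 with DESeq2, 4 with the covariates and 0 to 1 when 1 library was left out. The depot count, 0, was 3 unfiltered. The cause of these differences was not tested beyond the number of genes and samples in each fit. Without the muscle-rich libraries only trained replicates 1 and 2 were left in the trained group.

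Of 1263 fold changes of 53 genes under alternatives, 1217 kept direction and side of the threshold, 40 passed it newly and 6 changed sign. None of the 53 genes was called in the main fit, so keeping the side means staying uncalled. Many were also picked by a low p in these data. The changes of sign were Nr1d1 to 0.029 in the second stretch alone and 0.028 without the lymph node libraries, Clock to 0.17 in the second stretch, and Thbs1 to 0.37 there, 0.16 with the covariates and between −0.29 and 0.019 when 1 chow library was left out, positive without trained replicate 2. Of 743 medians of 31 lists, 728 moved by less than 1 SD between libraries. That SD was 0.44 for collagen beside a median of −0.38, and 2.53 for B cell genes beside −0.14. A change of sign can thus count as a move of less than 1 SD. The muscle fibre median was −1.04 in the first and 5.51 in the second stretch, and the clock output median 1.26 with the covariates. Leaving out 1 library gave exact permutation p of 0.325 to 1 for total counts (sign opposite in 7 of 10), 0.238 to 0.897 for genes detected and 0.524 to 0.952 for the mitochondrial share. Genes such as Dbp and Slc5a6 rest on 23 and 26 sedentary reads in all, which limits their precision.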
